A study of Mus musculus with 57 samples.

Results

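The pancreas was compared at 48 hours and at 24 hours of experimental pancreatitis, in the 5 regions labelled 48 hours and the 6 regions labelled 24 hours, which are 11 of the 57 regions of the study. The regions were taken by their treatment label and not by a measured value, but with earlier results of these data known. All animals were C57BL/6 mice, 8 to 9 weeks old. Pancreatitis was caused in both groups by caerulein, injected into the peritoneum every hour for 8 hours on consecutive days. Controls without caerulein (7 regions) were used here only as a level to set the 2 times against. The event from which 24 and 48 hours are counted was not stated in what was used here. The tissue was fixed in formalin, embedded in paraffin and laid out in tissue arrays, cut into 5 µm sections, and read with GeoMx probes for the whole transcriptome. A barcoded probe binds each RNA in the section, light cuts the barcodes from a chosen square of tissue (here 650 µm on a side), and sequencing counts what was released. The 24-hour group had regions 1 to 3 on array 1 and regions 4 to 6 on array 2, and the 48-hour group had regions 1 to 3 on array 1 and regions 4 and 5 on array 2. No label says which regions came from the same animal, and 2 to 4 regions were taken from a tissue sample, so counts were added within each time and array before testing. The p-values therefore rest on 2 sums per time and on a spread pooled over all 10 groups of the study, and part of that spread may be technical.

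Caerulein is an analogue of cholecystokinin, the gut hormone that makes acinar cells release their digestive enzymes. At high dose it overstimulates these cells, so that enzymes are activated inside the gland, acinar cells die or lose their granules, and leukocytes enter the tissue. Surviving acinar cells switch off enzyme genes and take on features of duct cells, a state called acinar to ductal metaplasia, while fibroblasts lay down collagen and macrophages clear debris. In the mouse this injury is self-limiting: acinar cells return to their secretory state, and the matrix and the infiltrate disappear. The comparison of 48 with 24 hours asks which genes of these cells differed between the 2 times.

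The 11 regions held 1121705 to 2700769 counts of targets, with 95.4 to 96.3% sequencing saturation, and 2 sums per time entered the comparison. The negative probes, which match no mouse RNA, stood at 50.2 to 61.6 CPM (counts scaled to the same total of tested targets in every region) at 24 hours and at 60.2 to 75.4 CPM at 48 hours, and this background was 0.30 higher at 48 hours on the log2 scale (0.23 on array 1 and 0.37 on array 2). A region had 1330 to 2679 targets above 2 times its negative probes at 24 hours (1760 ± 486, SD, n = 6). At 48 hours it had 667 to 1769 (929 ± 474, SD, n = 5), and the difference gave p = 0.0216 in a 2-sided exact permutation test over regions (0.4 within array 1 and 0.2 within array 2, where no p below 0.1 and 0.2 is possible). Controls had 645 ± 103 such targets (SD, n = 7). Nuclei numbered 1356 ± 289 per region at 24 hours (SD, n = 6) and 1626 ± 263 at 48 hours (SD, n = 5), against 942 ± 242 in controls, and the difference between the times did not pass the exact permutation test (p = 0.156, 0.019 without 48-hour region 1). That region, with 1167 nuclei and 1769 targets above background, stood apart from the other 48-hour regions, which had 1649 to 1796 nuclei and 667 to 835 such targets. Among the 24-hour regions, region 4 had the most targets above background. As regions may share an animal, these p-values over regions are too small. The tissue matched its label in both groups: transcripts of chymotrypsinogen (Ctrb1) stood at 13274 to 48804 CPM (median 35162) at 24 hours and 35501 to 54481 CPM (median 40899) at 48 hours.

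Of the 2688 targets tested, 472 (17.6%) passed an adjusted p of 0.05 in edgeR's quasi-likelihood test with Benjamini-Hochberg adjustment, 157 (5.84%) higher and 315 (11.7%) lower at 48 hours, each with the same sign on both arrays. The digestive enzymes held the highest rises: 14 of the 15 largest were digestive enzymes or granule proteins, and the other was the pancreatic disulfide isomerase Pdia2. The 15 largest falls were 6 genes of fibroblasts and matrix, 4 of the actin cytoskeleton, 2 lysosomal proteases, the metaplasia marker Clu, the lipid carrier Apoe and the stress regulator Nupr1. A difference of at least 1 on the log2 scale was found for 19 of the higher and 44 of the lower targets. Most lower calls (285 of 315) were of targets above 2 times the negative probes in most regions of at least 1 of the times, but only 52 of the 157 higher calls were, and 32 of the 157 exceeded the rise of the negative probes by over 2 SE. All 315 lower calls lay below that rise by over 2 SE, but a called fall lies below any rise by such a margin, so this tests nothing further. In these mixed regions, fewer cells of a type and less RNA per cell cannot be told apart.

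The balance of rises and falls moved with the scaling. The 30 largest differences kept their direction under each scaling and with any sum left out. As they were chosen by size among calls of the same sign on both arrays, a kept direction was largely fixed in advance. Higher calls made up 33.3% of calls here, 60.9% with scaling to the 75th percentile, 11% with scaling to the total, 2.25% with scaling to the negative probes, 44.9% with library sizes over all targets, and 54.8% after subtraction of the background (63 of 115 calls). The median difference of the tested targets was -0.01 and moved to -0.13 with total scaling and to -0.31 with scaling to the negative probes. The 24-hour regions of array 2 carried much of the contrast. Without their sum 21 targets were called (2 higher and 19 lower), with 0 of the 15 largest rises and 7 of the 15 largest falls among them (Col1a1, Col3a1, Postn, Sparc, Col1a2, Lgmn and Serpinh1). The count was 648 without the 24-hour sum of array 1, 81 without the 48-hour sum of array 1 and 182 without that of array 2. In each of these fits the lone sum of a time is assumed to vary like the other groups. Fitted on the 4 sums of these times alone, 0 targets passed and 709 had an unadjusted p under 0.05, and 607 passed in DESeq2's Wald test and 614 with limma-voom on all 20 sums.

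**Figure D1:**
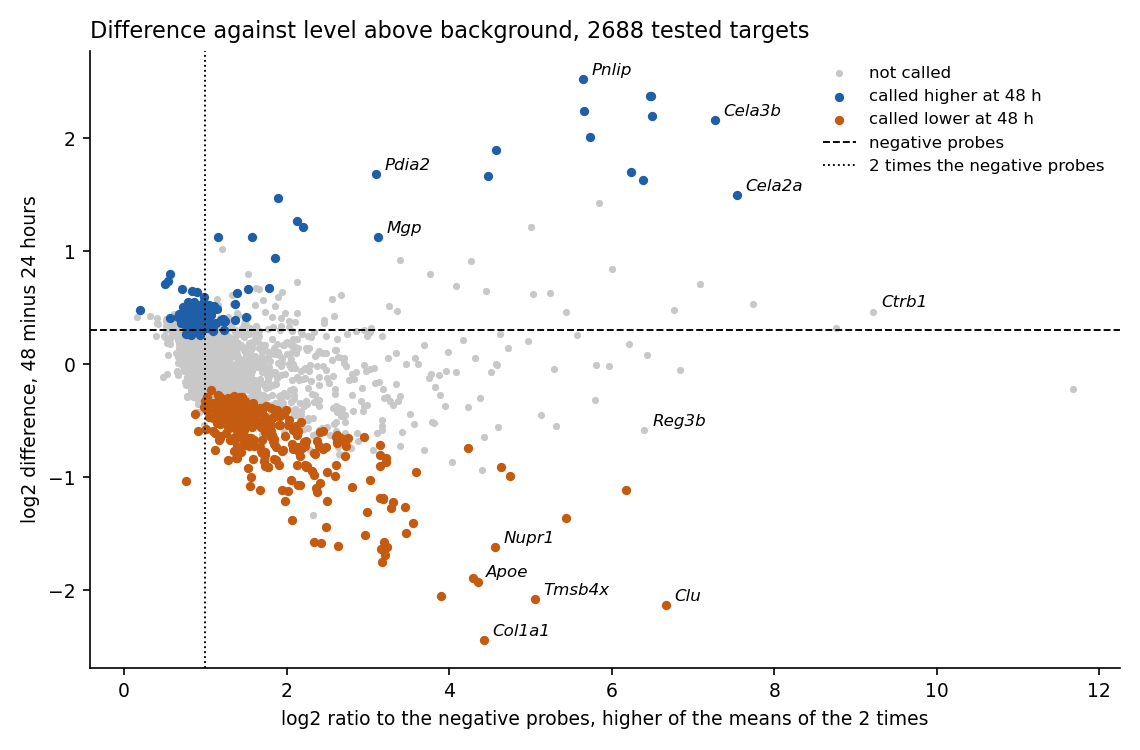
Log2 difference of each tested target, 48 hours minus 24 hours (y axis), against its level as the log2 ratio to the negative probes at the time with the higher mean (x axis). The dashed line marks the difference of the negative probes, 0.30, and the dotted line 2 times their level. Most called rises above 1 are digestive enzymes far above background, while many smaller rises lie near the dotted line, and called falls spread over the range above it.

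Most tested digestive enzymes and proteins of their granules were higher at 48 hours. Of the 31 listed members on the table, 29 passed the filter on low values. Of these, 17 were called higher and 0 lower, beside 5.84% and 11.7% of all tested targets. All 29 differences were above 0, with a median of 1.27 (0.73 on array 1 and 2.02 on array 2), against a median of -0.01 over all tested targets. For 19 members every 48-hour region was above every 24-hour region, as for 4.91% of all tested targets. The members remained below control at both times in most cases, with a median of -3.06 at 24 hours and -1.63 at 48 hours. With the 24-hour sum of array 2 left out 0 of 29 were called, and 22, 10 and 4 were called without the 24-hour sum of array 1, the 48-hour sum of array 1 and that of array 2. With 24-hour regions 4 and 6 left out together, the regions with the lowest levels of most enzymes and a choice made after seeing the data, 15 were called.

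Promoter windows of the enzymes are shown because these genes moved together and their acinar transcription is known to depend on PTF1, a complex that binds an E-box (CACCTG) beside a TC-box (TTTCCC). Both motifs were searched on both strands in the RefSeq windows of GRCm38.p6, 250 bases before to 50 bases after a gene start, and the motifs were chosen after the differences were seen. Any position in a window counted, with no rule on spacing or order, so a window with both motifs need not hold a PTF1 element. Of the 17 enzymes called higher, 11 had a window. CACCTG was present in 8 of the 11 (72.7%), against 20.2% of all 32851 windows, and both motifs were present in 4 of the 11 (36.4%), against 4.86%. TTTCCC was present in the same 4, against 25.2% of all windows. Cel (chr2:28563354-28563653), Cela2a (chr4:141825956-141826255) and Cela1 (chr15:100687871-100688170) hold both, and the window of Pnlip (chr19:58670115-58670414), the enzyme with the largest difference, holds neither. All are given 5′ to 3′ on the strand of the gene, with the motifs and their reverse complements in capitals.
Cel: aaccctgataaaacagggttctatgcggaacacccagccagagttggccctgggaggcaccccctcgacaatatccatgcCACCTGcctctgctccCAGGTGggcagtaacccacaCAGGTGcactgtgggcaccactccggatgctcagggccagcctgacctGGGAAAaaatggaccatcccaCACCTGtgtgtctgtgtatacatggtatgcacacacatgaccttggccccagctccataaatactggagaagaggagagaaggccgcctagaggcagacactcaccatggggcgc
Cela2a: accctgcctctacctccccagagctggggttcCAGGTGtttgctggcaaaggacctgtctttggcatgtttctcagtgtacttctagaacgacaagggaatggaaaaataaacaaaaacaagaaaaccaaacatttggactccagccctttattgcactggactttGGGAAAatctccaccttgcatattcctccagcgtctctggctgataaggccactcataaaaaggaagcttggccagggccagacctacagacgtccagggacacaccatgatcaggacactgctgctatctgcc
Cela1: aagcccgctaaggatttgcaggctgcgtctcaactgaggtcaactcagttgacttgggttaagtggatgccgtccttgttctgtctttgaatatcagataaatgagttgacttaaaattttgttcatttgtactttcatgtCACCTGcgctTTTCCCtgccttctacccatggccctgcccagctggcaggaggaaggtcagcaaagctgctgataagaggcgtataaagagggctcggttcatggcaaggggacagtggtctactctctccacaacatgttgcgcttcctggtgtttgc
Pnlip: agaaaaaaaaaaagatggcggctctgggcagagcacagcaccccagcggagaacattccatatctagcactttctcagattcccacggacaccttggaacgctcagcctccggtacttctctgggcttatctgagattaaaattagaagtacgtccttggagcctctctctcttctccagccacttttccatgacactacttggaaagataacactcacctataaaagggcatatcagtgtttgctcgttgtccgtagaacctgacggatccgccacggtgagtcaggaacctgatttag
A match describes the letters of the window and is not evidence of binding.

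The lipases digest dietary fat. Pancreatic lipase (Pnlip, probe at chr19:58681670-58681704), whose promoter window holds neither motif, stood at 1012, 1457 and 898 CPM on array 1 and 221, 457 and 172 CPM on array 2 at 24 hours. It stood at 1840.2, 2703 and 3179.9 CPM on array 1 and 5613 and 4583 CPM on array 2 at 48 hours. Every 48-hour region was above every 24-hour region, and the array 2 regions were the lowest of all at 24 hours and the highest at 48 hours. The log2 difference was 2.53 ± 0.65 (SE; 5.76-fold; edgeR's quasi-likelihood test, adjusted p = 0.0153), 1.17 on array 1 and 4.25 on array 2, and it moved to 1.74 (adjusted p = 0.229) without the 24-hour sum of array 2, to 1.80 (adjusted p = 0.111) without the 48-hour sum of array 2 and to 3.85 without the 24-hour sum of array 1. The control level was 32781 ± 2771 CPM (SD, n = 7). Carboxyl ester lipase (Cel), which hydrolyses cholesterol and vitamin esters, stood at 349 to 2794 CPM (median 1672) at 24 hours and 5023 to 7555 CPM (median 6707) at 48 hours, a difference of 2.20 ± 0.56 (adjusted p = 0.0153). Colipase (Clps), the cofactor that holds pancreatic lipase on bile-coated fat, stood at 336 to 3011 CPM (median 2122) at 24 hours and 4513 to 6377 CPM (median 5302) at 48 hours, a difference of 1.70 ± 0.47 (adjusted p = 0.0204). For both, the groups did not overlap. Phospholipase A2 (Pla2g1b) was also called, at 1.13 ± 0.22, from a level near background at 24 hours (median 69.5 CPM). The lipase-related proteins Pnliprp1 (0.84 ± 0.42, adjusted p = 0.163) and Pnliprp2 (0.37 ± 0.28, adjusted p = 0.362) were not called.

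**Figure D2:**
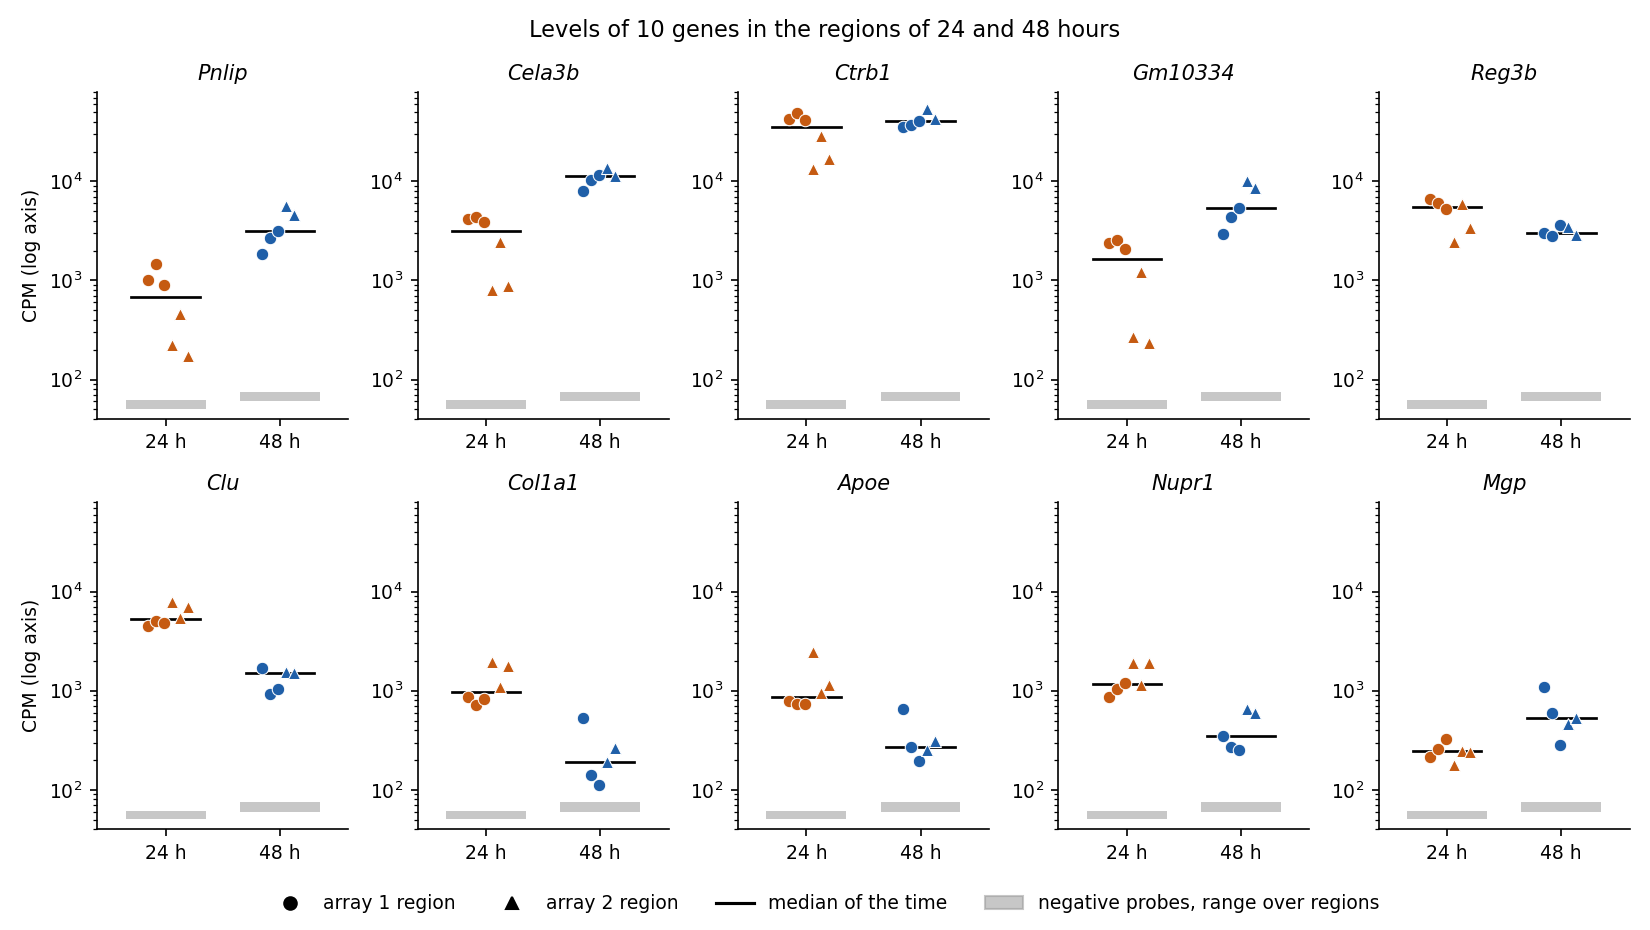
Level of 10 genes in each region of 24 and 48 hours, in CPM on a log axis. Circles are regions of array 1, triangles regions of array 2, the black lines group medians, and the grey band the range of the negative probes. The enzymes Pnlip, Cela3b and Gm10334 are higher at 48 hours without overlap, Ctrb1 overlaps, and Clu, Col1a1 and Apoe are lower without overlap.

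Elastases and chymotrypsins cut proteins in the gut. The elastase Cela3b stood at 4179, 4393 and 3880.1 CPM on array 1 and 804, 2441 and 878 CPM on array 2 at 24 hours. It stood at 8078, 10288 and 11578 CPM on array 1 and 13644 and 11358 CPM on array 2 at 48 hours. The lowest 48-hour region, region 1, was still above the highest 24-hour region, and the difference was 2.16 ± 0.44 (4.46-fold, adjusted p = 0.00436), and 1.56 (adjusted p = 0.077) without the 24-hour sum of array 2. Cela1 and Cela2a, with both motifs in their windows, were 3.17-fold (adjusted p = 0.0115) and 2.83-fold (adjusted p = 0.0428) higher. Cela2a stood at 1878 to 7628 CPM (median 5499) at 24 hours and 9705 to 15227 CPM (median 14106) at 48 hours, and its call was lost with the background subtracted. Chymotrypsin-like Ctrl stood at 208 to 1693 CPM (median 1161) at 24 hours and 2803 to 4258 CPM (median 3975) at 48 hours, a difference of 2.01 ± 0.53 (adjusted p = 0.018). Chymotrypsin C (Ctrc), which in human degrades trypsinogen, went from a median of 95.9 to 255 CPM (1.47 ± 0.28, adjusted p = 0.00286). Chymotrypsinogen B (Ctrb1) did not pass: it stood at 42770.3, 48804 and 41591 CPM on array 1 and 13274, 28732 and 16907 CPM on array 2 at 24 hours and at 35501, 37530.1 and 40899 CPM on array 1 and 54481 and 42439.7 CPM on array 2 at 48 hours. On array 1 every 24-hour region was above every 48-hour region and on array 2 every one was below, and the difference was 0.47 ± 0.41 (adjusted p = 0.435), -0.25 on array 1 and 1.36 on array 2.

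Trypsinogens are the precursors of trypsin, which activates the other zymogens. Some of their probes have several annotated positions in near-identical genes, so that counts may mix copies. The trypsinogen 2210010C04Rik stood at 2052, 2243 and 1952 CPM on array 1 and 467, 1069 and 468 CPM on array 2 at 24 hours. It stood at 5017, 5732 and 6975 CPM on array 1 and 7568 and 6443 CPM on array 2 at 48 hours. The groups were far apart, with a difference of 2.38 ± 0.44 (5.2-fold, adjusted p = 0.00263), and the array 2 regions were again the lowest at 24 hours. Try4, whose probe has 3 annotated positions, differed by 1.63 ± 0.43 (adjusted p = 0.018). Gm10334 (RefSeq symbol Gm5771, also 3 positions) stood at 2412, 2571 and 2099 CPM on array 1 and 266, 1229.8 and 234 CPM on array 2 at 24 hours and at 2950.1, 4416 and 5448 CPM on array 1 and 10182 and 8609.8 CPM on array 2 at 48 hours, a difference of 2.37 ± 0.63 (adjusted p = 0.0183). Its call was lost without the array 2 sum of 24 hours (adjusted p = 0.263) and without that of 48 hours (adjusted p = 0.154). Unlike the enzymes above it was higher than control at both times, by 1.29 at 24 and 3.66 at 48 hours. The related target 1810009J06Rik was above control too, by 3.46 and 4.11, but between the times its arrays went opposite ways (-0.80 and 2.02) and it was not called. Prss2 was not called either (0.63 ± 0.36, adjusted p = 0.222), nor was the trypsin inhibitor Spink1 (0.51 ± 0.32, adjusted p = 0.269).

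Other enzymes did not pass the test. Carboxypeptidase A1 (Cpa1), which trims amino acids from protein ends, had medians of 1051 and 1178 CPM and a difference of 0.22 ± 0.32 (adjusted p = 0.658). Carboxypeptidase B (Cpb1) and pancreatic ribonuclease (Rnase1) had groups that did not overlap, with differences of 1.21 ± 0.42 and 1.43 ± 0.49, and missed the threshold at adjusted p = 0.0554 and 0.0517. Amylase (Amy2a1, which digests starch and whose probe has 5 positions) stood at 2302 to 9306 CPM (median 6503) and 6306 to 10248 CPM (median 7480.2) and was not called (0.48 ± 0.49, adjusted p = 0.504). Whether the members of a family differed from each other was not tested.

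Among the proteins of the zymogen granule, Zg16, a lectin of the granule membrane, stood at 161 to 1384 CPM (median 974) at 24 hours and 2455 to 4491 CPM (median 3781) at 48 hours, a difference of 2.25 ± 0.53 (adjusted p = 0.0101). Cuzd1, a granule membrane protein, was higher by 1.27 ± 0.30 (adjusted p = 0.00997), and the serpin Serpini2 by 0.94 ± 0.28 (adjusted p = 0.0285). The trefoil peptide Tff2 had medians of 147 and 334 CPM (1.22 ± 0.32, adjusted p = 0.017). Syncollin (Sycn, 0.91 ± 0.39, adjusted p = 0.105) and the major granule glycoprotein Gp2 (0.17 ± 0.34, adjusted p = 0.751) were not called.

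Acinar transcription factors and secretory proteins gave a mixed picture. Of 19 listed genes 15 were tested. Of these, 7 were called higher (46.7%, against 5.84% of all tested targets) and 2 lower (13.3%, near the 11.7% of all tested targets). The median was 0.44 (0.11 on array 1 and 0.73 on array 2). The enzyme-folding protein Pdia2, a disulfide isomerase of the acinar endoplasmic reticulum, had the largest rise of the list: 276, 262 and 222 CPM on array 1 and 120.1, 194 and 124 CPM on array 2 at 24 hours and 514, 523 and 571 CPM on array 1 and 751 and 669 CPM on array 2 at 48 hours. The groups did not overlap and the difference was 1.68 ± 0.30 (adjusted p = 0.00186). Gatm, which makes the creatine precursor, went from a median of 143 to 242 CPM (0.68 ± 0.21, adjusted p = 0.0333), and Erp27, a chaperone-like protein of the reticulum, from 128 to 192 CPM (0.63 ± 0.17, adjusted p = 0.018). The other 4 called higher, Tmed6, Slc39a5, Gnmt and Aqp12, were not above 2 times the negative probes in most regions of either time. The acinar transcription factors did not pass: Rbpjl, the acinar subunit of PTF1, differed by 0.25 ± 0.42 (adjusted p = 0.698), Bhlha15 (Mist1) by 0.53 ± 0.24 (adjusted p = 0.122) and Nr5a2 by -0.17 ± 0.17 (adjusted p = 0.495). The cholecystokinin receptor Cckar, the receptor of caerulein, had medians of 217 and 155 CPM (-0.31 ± 0.19, adjusted p = 0.26). Without the 24-hour sum of array 2, 0 of the 15 were called.

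Nupr1 and Xbp1 were the 2 members of that list that fell. Nupr1, a small chromatin protein induced in acinar cells by pancreatitis, stood at 865, 1041 and 1184 CPM on array 1 and 1895, 1137 and 1900.2 CPM on array 2 at 24 hours. It stood at 352, 269 and 253 CPM on array 1 and 655 and 589 CPM on array 2 at 48 hours. The groups did not overlap, and the difference was -1.62 ± 0.38 (adjusted p = 0.0101). Its 48-hour level was -0.82 against control on the log2 scale (adjusted p = 0.336), where the mean was 778 ± 79.9 CPM. Xbp1, the transcription factor that expands the secretory endoplasmic reticulum, fell as well (-0.75 ± 0.21, adjusted p = 0.0209), from a median of 322 to 169 CPM. Without the 24-hour sum of array 2 the adjusted p was 0.152 for Nupr1 and 0.152 for Xbp1; with the array 1 sum of 48 hours left out it was 0.145 and 0.199. Xbp1 also lost its call without either of the other sums (adjusted p = 0.0527 and 0.0575). Genes of the endoplasmic reticulum did not move as a block. Among 15 chaperones, 3 were higher (Ero1b, which oxidises disulfide isomerases, at 0.67 ± 0.21, with Fkbp11 at 0.65 ± 0.13 and Hyou1 at 0.42 ± 0.13) and 3 lower (Pdia3 at -0.81 ± 0.22, calnexin Canx at -0.66 ± 0.16 and calreticulin Calr at -0.64 ± 0.19, the lectin chaperones of glycoproteins and their partner), 20% each way against 5.84% higher and 11.7% lower over all tested targets. Without the 24-hour sum of array 2 or the 48-hour sum of array 2 none of the 15 was called in either direction, and with the array 1 sum of 48 hours left out 1 was called higher and 0 lower. With scaling to the negative probes 0 were called higher and 4 lower, and with the background subtracted 1 higher and 0 lower. Derl3, part of the channel that exports misfolded proteins, was higher by 1.13 ± 0.20 (adjusted p = 0.00215), going from a median of 104 to 219 CPM, but lost its call without the 24-hour sum of array 2 (adjusted p = 0.081). Edem3 was the other call among 9 degradation genes, at background level and with no rise when scaled to the negative probes.

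The regenerating lectins, secreted by injured acinar cells, were not called in either direction. All 6 were tested, with 0 calls in edgeR and DESeq2, 1 higher at an unadjusted p of 0.05 and 1 higher with limma-voom on the sums, and a median of 0.30, the value of the negative probes. Reg3b stood at 6607, 6090.3 and 5271 CPM on array 1 and 2425, 5854 and 3424 CPM on array 2 at 24 hours. It stood at 2989, 2785 and 3616 CPM on array 1 and 3438 and 2879 CPM on array 2 at 48 hours. The 2 groups overlapped, and the difference was -0.58 ± 0.62 (adjusted p = 0.521). Reg3b was far above control at both times, by 5.30 and 4.71 on the log2 scale. Reg1 (0.71 ± 0.40, adjusted p = 0.213), Reg2 (0.62 ± 0.64, adjusted p = 0.513) and Reg3d (0.80 ± 0.31, adjusted p = 0.0829) had values above 0, and Reg3g (-0.58 ± 0.28, adjusted p = 0.153) a value below 0.

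**Figure D3:**
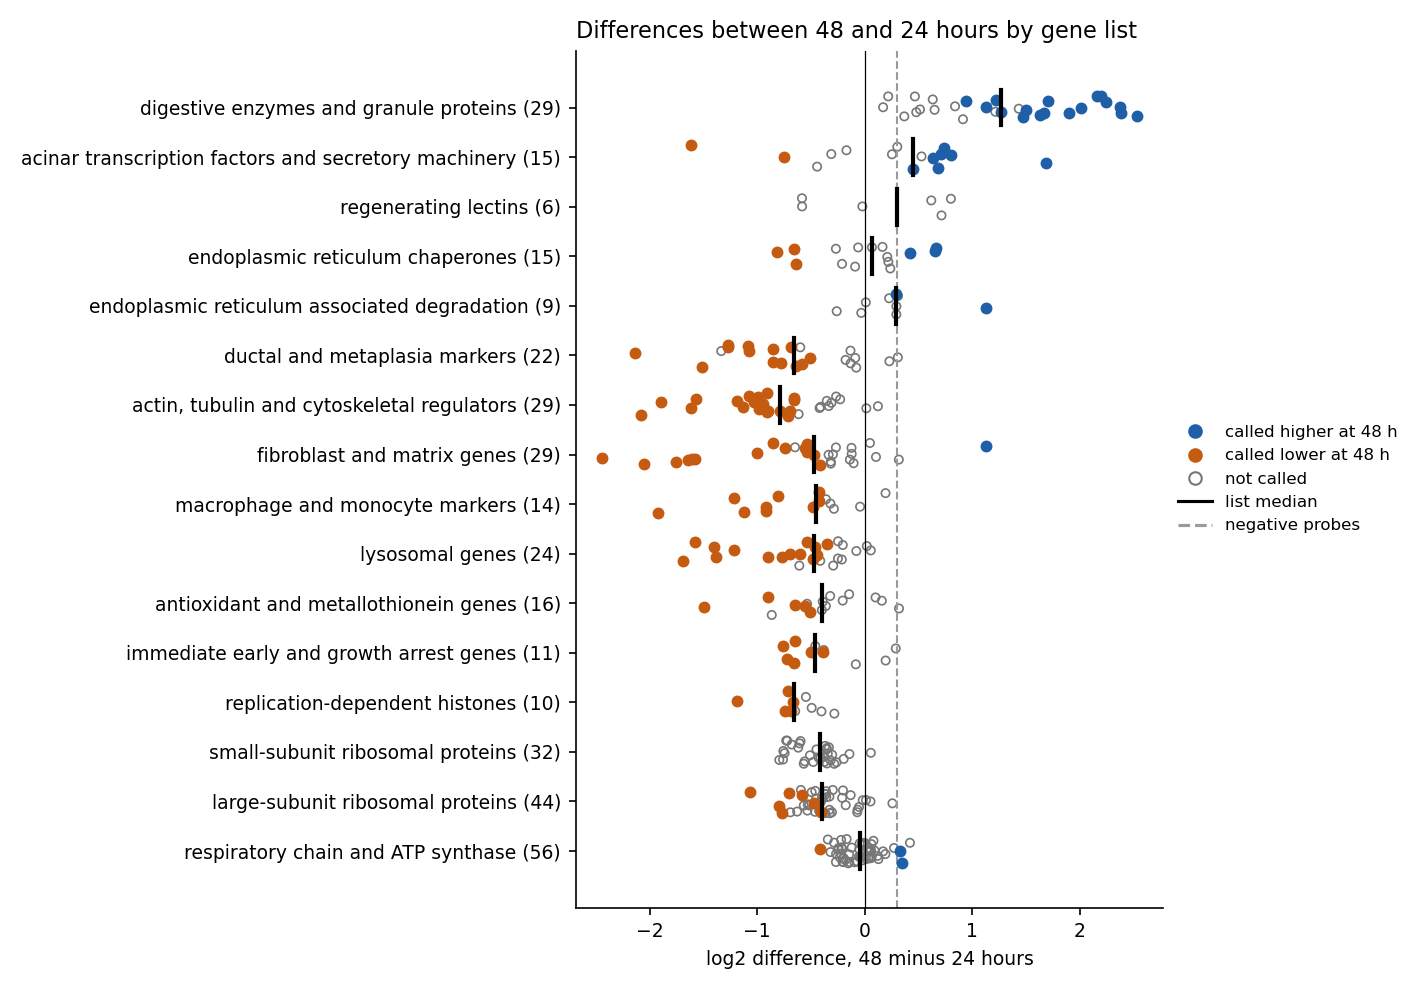
Log2 differences, 48 hours minus 24 hours, of the tested members of 16 gene lists, with the number tested in brackets. Blue points were called higher, orange points called lower, open points not called, black bars are list medians and the dashed line is the negative probes at 0.30. Digestive enzymes lie to the right of 0, and most members of the ductal, cytoskeletal, lysosomal and histone lists to the left.

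Most tested markers of ducts and of metaplasia were lower at 48 hours. Of 30 listed genes 22 were tested. Of the 30, 16 were above 2 times the negative probes in most 24-hour regions and 7 in most 48-hour regions. Members may thus have passed the filter through their 24-hour level, which favours a fall. Without a filter 16 of the 30 were called lower and 0 higher, beside 761 and 258 of 9780 targets. Of the 22 tested, 13 were called lower (59.1%, against 11.7% of all tested targets) and 0 higher. The median was -0.66, and for 11 every 48-hour region was below every 24-hour region, as for 9.34% of all tested targets. The calls numbered 15, 0, 2 and 3 without the 24-hour sum of array 1, that of array 2, the 48-hour sum of array 1 and that of array 2, with 1 further gene higher in the first, and 4 with the background subtracted. Clusterin (Clu), an extracellular chaperone induced in injured acinar cells, stood at 4459.7, 5100.1 and 4825 CPM on array 1 and 7839, 5407 and 6982 CPM on array 2 at 24 hours. It stood at 1678, 936 and 1043 CPM on array 1 and 1542 and 1510.1 CPM on array 2 at 48 hours. Every 48-hour region was far below every 24-hour region, the difference was -2.13 ± 0.49 (adjusted p = 0.00917), and the 48-hour level was 2.06 above control on the log2 scale. Without the 24-hour sum of array 2 the difference of Clu was -1.75 (adjusted p = 0.134). With the array 1 sum of 48 hours left out it was -1.88 (adjusted p = 0.121). The simple keratins, filaments of duct-like cells, followed: Krt8 was 342, 396 and 410.0 CPM on array 1 and 916, 494 and 718 CPM on array 2 at 24 hours and 234, 176 and 202 CPM on array 1 and 255 and 262 CPM on array 2 at 48 hours, a difference of -1.27 ± 0.37 (adjusted p = 0.0251). Krt18 differed by -1.09 ± 0.31 (adjusted p = 0.0234) and Krt19 by -1.08 ± 0.17 (adjusted p = 0.00109). Osteopontin (Spp1), a secreted phosphoprotein, had a median of 516 CPM at 24 hours and 242 CPM at 48 hours (-1.27 ± 0.37, adjusted p = 0.0253), and the 48-hour region 1 (467 CPM) lay above the other 4. The calcium-binding S100a11 fell by 1.51 (adjusted p = 0.0102). Claudin 4 (Cldn4, a tight junction protein) was -1.34 ± 0.45 and missed the threshold (adjusted p = 0.0512).

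Most tested genes of the cytoskeleton were lower as well. Of 31 listed genes 29 were tested, and 19 were called lower (65.5%, against 11.7% of all tested targets) and 0 higher. The median was -0.79 (-0.49 on array 1 and -0.93 on array 2). For 17 every 48-hour region was below every 24-hour region, as for 9.34% of all tested targets. Thymosin beta 4 (Tmsb4x), which holds actin monomers in reserve, stood at 1207, 1231 and 1340.2 CPM on array 1 and 3376, 1517 and 2448 CPM on array 2 at 24 hours. It stood at 676, 357 and 309 CPM on array 1 and 465 and 504 CPM on array 2 at 48 hours. All 48-hour regions were below all 24-hour regions, and the difference was -2.08 ± 0.39 (adjusted p = 0.00289), and -1.42 (adjusted p = 0.089) without the 24-hour sum of array 2. The adjusted p of Tmsb4x was 0.0562 without the 48-hour sum of array 1. Beta actin (Actb) fell from a median of 868 to 306 CPM (-1.89 ± 0.37, adjusted p = 0.00392), gamma actin (Actg1) from 398 to 186 CPM (-1.57 ± 0.49, adjusted p = 0.0347) and thymosin beta 10 (Tmsb10) from 443 to 181 CPM (-1.62 ± 0.31, adjusted p = 0.0032). Cofilin (Cfl1), which severs filaments, differed by -1.18 ± 0.29 and the crosslinker Actn1 by -1.13 ± 0.24. The tubulins Tubb5 (-0.27 ± 0.14), Tuba1b (-0.23 ± 0.14) and Tubb4b (0.01 ± 0.09) were near background and not called. Calls numbered 24, 1, 2 and 9 without the 24-hour sum of array 1, that of array 2, the 48-hour sum of array 1 and that of array 2, and 6 with the background subtracted.

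Many genes of fibroblasts and the extracellular matrix were lower, and 1 was higher. Of 43 listed fibroblast and matrix genes 29 were tested. Of the 43, 19 were above 2 times the negative probes in most 24-hour regions and 7 in most 48-hour regions. Members may thus have passed the filter through their 24-hour level, which favours a fall. Without a filter 22 of the 43 were called lower and 1 higher, beside 761 and 258 of 9780 targets. Of the 29 tested, 15 were called lower (51.7%, against 11.7% of all tested targets) and 1 higher (3.45%, against 5.84%). The median was -0.48. For 10 members every 48-hour region was below every 24-hour region, as for 9.34% of all tested targets. Type I collagen (Col1a1, the main fibril of scar tissue, probe at chr11:94937957-94937994) stood at 864, 718 and 817 CPM on array 1 and 1968, 1099 and 1783 CPM on array 2 at 24 hours. It stood at 526, 139 and 113 CPM on array 1 and 192 and 262 CPM on array 2 at 48 hours. The 48-hour region 1 was the highest of its group and below every 24-hour region, and the difference was -2.44 ± 0.37 (5.43 times higher at 24 hours, adjusted p = 8.33e-04), -1.83 without the 24-hour sum of array 2. Its partner chain Col1a2 (-1.61 ± 0.21, adjusted p = 5.25e-04), type III collagen (Col3a1, -2.06 ± 0.29, adjusted p = 5.45e-04), the collagen chaperone Serpinh1 (-1.58 ± 0.20, adjusted p = 5.25e-04), Sparc, which binds collagen (-1.64 ± 0.23, adjusted p = 5.25e-04), and periostin (Postn, -1.75 ± 0.29, adjusted p = 0.00126) fell with it. Decorin (Dcn, -0.34 ± 0.12), lumican (Lum, -0.10 ± 0.11) and the basement membrane chains Col4a1 (-0.30 ± 0.10) and Col4a2 (0.05 ± 0.11) were not called. Matrix Gla protein (Mgp), which inhibits calcification, was the 1 called higher, and was singled out after its values were seen. It stood at 214, 261 and 326 CPM on array 1 and 178, 246 and 243 CPM on array 2 at 24 hours. It stood at 1085, 600.4 and 282 CPM on array 1 and 465 and 525 CPM on array 2 at 48 hours. Region 3 of 48 hours lay within the range of 24 hours, the other 4 above it and region 1 highest, and the difference was 1.13 ± 0.25 (adjusted p = 0.00808). Without the 24-hour sum of array 2, or without the 48-hour sum of array 1, 0 of the 29 were called higher, Mgp included. Lower calls in the list numbered 17, 6, 11 and 9 without the 24-hour sum of array 1, that of array 2, the 48-hour sum of array 1 and that of array 2. With the background subtracted there were 5, and 1 higher.

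Most tested markers of macrophages and monocytes were lower. Of 32 listed genes 14 were tested. Of the 32, 9 were above 2 times the negative probes in most 24-hour regions and 1 in most 48-hour regions. Members may thus have passed the filter through their 24-hour level, which favours a fall. Without a filter 17 of the 32 were called lower and 0 higher, beside 761 and 258 of 9780 targets. Of the 14 tested, 9 were called lower (64.3%, against 11.7% of all tested targets) and 0 higher. The median was -0.46, and for 7 every 48-hour region was below every 24-hour region, as for 9.34% of all tested targets. Apolipoprotein E (Apoe), a lipid carrier made by macrophages, stood at 783, 738 and 736 CPM on array 1 and 2462, 942 and 1129 CPM on array 2 at 24 hours. It stood at 655, 273 and 197 CPM on array 1 and 250.1 and 308 CPM on array 2 at 48 hours. Region 4 of 24 hours was the highest by far, region 1 of 48 hours the highest of its time, and the groups did not overlap. The difference was -1.93 ± 0.39 (adjusted p = 0.00474), and -1.21 (adjusted p = 0.136) without the 24-hour sum of array 2. The adjusted p of Apoe was 0.0512 and 0.0555 without the 48-hour sum of array 1 and that of array 2. Cathepsin S (Ctss, -1.21 ± 0.17, adjusted p = 5.25e-04), the complement subunits C1qb (-1.13 ± 0.17, adjusted p = 8.33e-04) and C1qa (-0.81 ± 0.14, adjusted p = 0.0015), lysozyme (Lyz2, -0.92 ± 0.13, adjusted p = 6.24e-04) and the receptor subunit Fcer1g (-0.91 ± 0.17, adjusted p = 0.00303) were lower as well. The alternative-activation markers Mrc1 (-0.36 ± 0.14) and Arg1 (0.19 ± 0.15) were at background and not called. Calls numbered 11, 3, 6 and 5 without the 24-hour sum of array 1, that of array 2, the 48-hour sum of array 1 and that of array 2, and 3 with the background subtracted. Class I antigen presentation genes were lower too: B2m (-1.19 ± 0.24, adjusted p = 0.00392), H2-D1 (-1.12 ± 0.19, adjusted p = 0.0015) and H2-K1 (-0.89 ± 0.17, adjusted p = 0.00271) fell. These were 3 of the 5 tested antigen presentation genes (60%, against 11.7% of all tested targets). Cd74 of class II was at background (-0.06 ± 0.12). The 1 member with a difference above 0 was at 0.38 and was not called here. In DESeq2 and in limma-voom on the sums 1 member was called higher. All 3 calls were lost without the 24-hour sum of array 2 (adjusted p 0.129 for B2m, 0.089 for H2-D1 and 0.0942 for H2-K1), and that of B2m without the 48-hour sum of array 1 as well (adjusted p = 0.068).

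Most tested lysosomal genes were lower. Of 37 listed genes 24 were tested, and 14 were called lower (58.3%, against 11.7% of all tested targets) and 0 higher. The median was -0.47, and for 13 members every 48-hour region was below every 24-hour region, as for 9.34% of all tested targets. Cathepsin D (Ctsd, the main aspartic protease of lysosomes) stood at 354, 374 and 344 CPM on array 1 and 1005, 470.2 and 548 CPM on array 2 at 24 hours. It stood at 216, 161 and 139.9 CPM on array 1 and 144 and 177 CPM on array 2 at 48 hours. The groups did not overlap and the difference was -1.69 ± 0.29 (adjusted p = 0.0015), and -1.13 (adjusted p = 0.0599) without the 24-hour sum of array 2. Legumain (Lgmn, -1.58 ± 0.22, adjusted p = 5.25e-04), prosaposin (Psap, -1.40 ± 0.25, adjusted p = 0.00202), cathepsin B (Ctsb, which can activate trypsinogen in the acinar cell, -1.38 ± 0.19, adjusted p = 5.25e-04) and progranulin (Grn, -1.21 ± 0.20, adjusted p = 0.00109) followed. Cathepsin L (Ctsl), which inactivates trypsinogen, had medians of 510.4 and 316 CPM and was not called (-0.61 ± 0.21, adjusted p = 0.0557). The 24-hour region 4, highest for the macrophage markers, was also the highest for Ctsd, Lgmn, Psap and Ctsb, and the part of macrophages in the lysosomal fall was not tested. Calls numbered 18, 3, 6 and 8 without the 24-hour sum of array 1, that of array 2, the 48-hour sum of array 1 and that of array 2, and 4 with the background subtracted. Many lysosomal genes carry the CLEAR element, bound by the factor TFEB. Its core TCACGTGA, its own reverse complement, was present in 2 of the 13 windows (15.4%) of the 10 called genes that had any, those of Ctsa and Ctsd, against 0.974% of all windows. Counted by gene, with any window holding it, that was 2 of 10 (20%) against 1.12% of the 27025 genes with a window. The window of Ctsd (chr7:142387778-142388077) is shown, 5′ to 3′ on the strand of the gene, with the core in capitals.
Ctsd: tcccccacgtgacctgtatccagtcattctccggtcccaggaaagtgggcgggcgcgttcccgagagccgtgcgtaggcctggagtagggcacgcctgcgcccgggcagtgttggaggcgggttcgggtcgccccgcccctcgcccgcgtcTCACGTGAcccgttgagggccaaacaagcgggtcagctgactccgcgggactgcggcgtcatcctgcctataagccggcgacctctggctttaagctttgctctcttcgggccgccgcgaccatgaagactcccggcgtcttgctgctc
This motif, too, was chosen after the differences were seen, and nothing follows from it about TFEB in these regions.

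**Figure D4:**
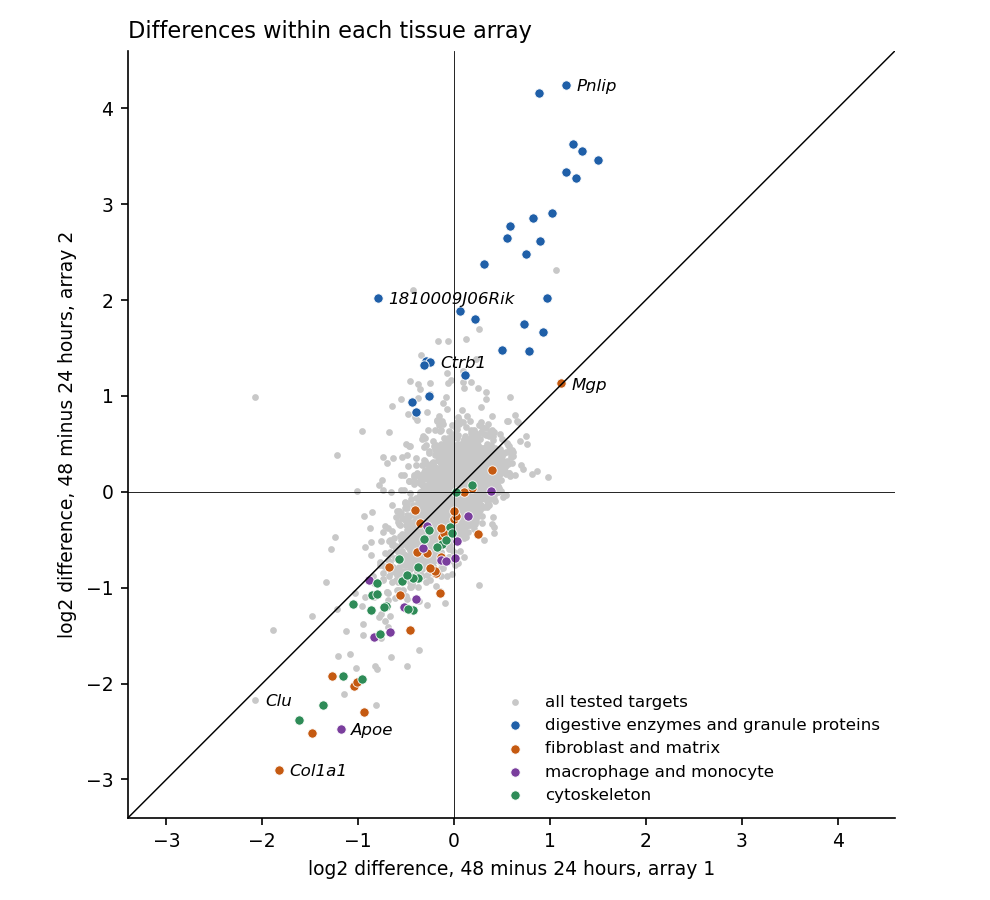
Log2 difference, 48 hours minus 24 hours, within array 1 (x axis) and within array 2 (y axis) for all tested targets. Digestive enzymes, fibroblast and matrix genes, macrophage markers and cytoskeletal genes are coloured. Enzymes lie in the upper right with larger values on array 2 (list medians 0.73 and 2.02), and the other 3 lists mostly in the lower left.

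Among markers of the other cell types that pancreas can hold, few passed the test. For the lists already described, the summed level of the ductal list was 8492 to 15493 CPM at 24 hours and 4242 to 5446 CPM at 48 hours, and that of the macrophage list 3849 to 7830 and 3002 to 3626 CPM, without overlap. The fibroblast list summed to 6479 to 11394 and 4719 to 7190 CPM, with overlap. Neutrophil markers summed to 540 to 656 and 608 to 721 CPM, and islet markers to 828 to 1670 and 1312 to 2614 CPM. Of the 6 islet genes tested 0 were called in edgeR, 2 higher in DESeq2 and with limma-voom, and 3 higher at an unadjusted p of 0.05, with Ins1 at 0.73 ± 0.54 and Gcg at 1.02 ± 0.45. The 3 neutrophil and 3 erythrocyte genes tested had 0 calls in edgeR, DESeq2 and limma-voom and 0 at an unadjusted p of 0.05. Lymphocyte and mast cell markers, 5 each, had no tested member. Of the endothelial markers 1 of 13 was tested and not called. No marker on these lists was at 0 counts in all 11 regions, and their part in the enzyme and matrix differences was not tested.

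Genes of growth, stress and housekeeping passed the test in part. Of 18 listed replication-dependent histones 10 were tested and 5 were called lower (50%, against 11.7% of all tested targets), with a median of -0.66. H3c1 (4 probe positions) fell by 1.19 (adjusted p = 0.00303) and H2bc8 by 0.69 (adjusted p = 0.0131). These histone calls fell to 0 without the 24-hour sum of array 2 or the 48-hour sum of array 1 and to 1 with the background subtracted. Stathmin (Stmn1), which destabilises microtubules in dividing cells, was -0.64 ± 0.11 (adjusted p = 0.00194), the lowest of the 4 calls among 13 cell division genes (30.8%). Of 11 immediate early and growth arrest genes 6 were called lower (54.5%), led by Btg2 (-0.76 ± 0.15, adjusted p = 0.00303) and the RNA-binding Zfp36l1 (-0.72 ± 0.22, adjusted p = 0.0301). Ferritin light chain (Ftl1), an iron store, fell from a median of 537 to 217 CPM (adjusted p = 0.0015), and 5 of 16 antioxidant genes were called lower (31.2%). Without the 24-hour sum of array 2, 0 genes of the cell division, immediate early and antioxidant lists were called. Lower calls numbered 1, 0 and 1 in these lists when the array 1 sum of 48 hours was left out, where 1 immediate early gene was also called higher, and 1, 1 and 1 when the array 2 sum of 48 hours was. With the background subtracted they numbered 0, 1 and 2. The chaperone Hspa8 (-1.10 ± 0.33, adjusted p = 0.0285) was 1 of 2 called of 15 heat shock genes, 13.3% and thus near the share of all targets. Of 12 genes of the integrated stress response 3 were called lower (25%, against 11.7% of all tested targets). These were Atf5 (-0.72 ± 0.14), Ddit4 (-0.71 ± 0.12) and the kinase gene Eif2ak3 (-0.68 ± 0.16). Atf4 was not called (-0.16 ± 0.10), the list median was -0.10, and 4 of the 12 differences were above 0. In this list and the heat shock list 0 were called without the 24-hour sum of array 2. The acute phase gene Lcn2 was at background (-0.43 ± 0.27), and the chemokine Ccl6 led the cytokine list (-1.12 ± 0.25, adjusted p = 0.00912).

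Ribosomal protein genes had medians below 0 with few calls. Among 32 small-subunit genes edgeR called 0, DESeq2 called 5 lower, limma-voom called 0 and 13 were lower at an unadjusted p of 0.05, with a median of -0.42. Among 44 large-subunit genes 7 were called lower (15.9%, near the 11.7% of all tested targets), led by Rplp2 (-1.07 ± 0.27, adjusted p = 0.0137, 2 probe positions) and Rpl5 (-0.80 ± 0.26, adjusted p = 0.0382), with a median of -0.40. With scaling to the negative probes 22 large-subunit and 19 small-subunit genes were called lower. Of 34 genes on the list of translation factors 7 were called lower (20.6%, against 11.7% of all tested targets). Tpt1 (-1.03 ± 0.31), a translationally controlled protein and not itself an initiation or elongation factor, and Eef2 (-0.86 ± 0.27) came first. Genes of the respiratory chain had a median of -0.05, with 2 of 56 called higher and 1 lower. Of 27 genes of translocation and glycosylation 1 was called higher, Sec11c, at background and with no rise when scaled to the negative probes, and of 19 vesicle coat genes 1 was called lower, Arf5 (-0.41 ± 0.10). No large-subunit gene was called without the 24-hour sum of array 2, without the 48-hour sum of array 1 or with the background subtracted, and no translation factor in these fits or without the 48-hour sum of array 2. Among the 10 targets of highest mean CPM, Lrr1, Gm10265, Gm52523, Gm52800 and Chic2 were not called. Lrr1 stood at 124497 to 243638 CPM (median 207664) at 24 hours and 102819 to 229063 CPM (median 130666) at 48 hours. As CPM are adjusted by TMM scaling, these values are not exact shares of a region's counts.

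Set against control, fewer targets were called at 48 hours than at 24 hours. Both comparisons share the controls, and the 24-hour one shares its regions with the contrast above, so the values are given side by side only. At 24 hours 1138 of the 2688 targets (42.3%) differed from control, 586 higher and 552 lower. At 48 hours 45 (1.67%) did, 18 higher and 27 lower. The negative probes differed from control by -0.43 on the log2 scale at 24 hours and by -0.13 at 48 hours. Of these calls, 441 at 24 hours and 11 at 48 hours were among 1234 targets near background. Those targets were not above 2 times the negative probes in most regions of 24 or of 48 hours. The part of the background in the 2 counts was not tested. The digestive list had 27 members called against control at 24 hours and 14 at 48 hours, the cytoskeletal list 24 and 0, the fibroblast list 21 and 1, and the macrophage list 10 and 1. The histones had 10 and 5 and kept a median of 0.67 above control at 48 hours.

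**Figure D5:**
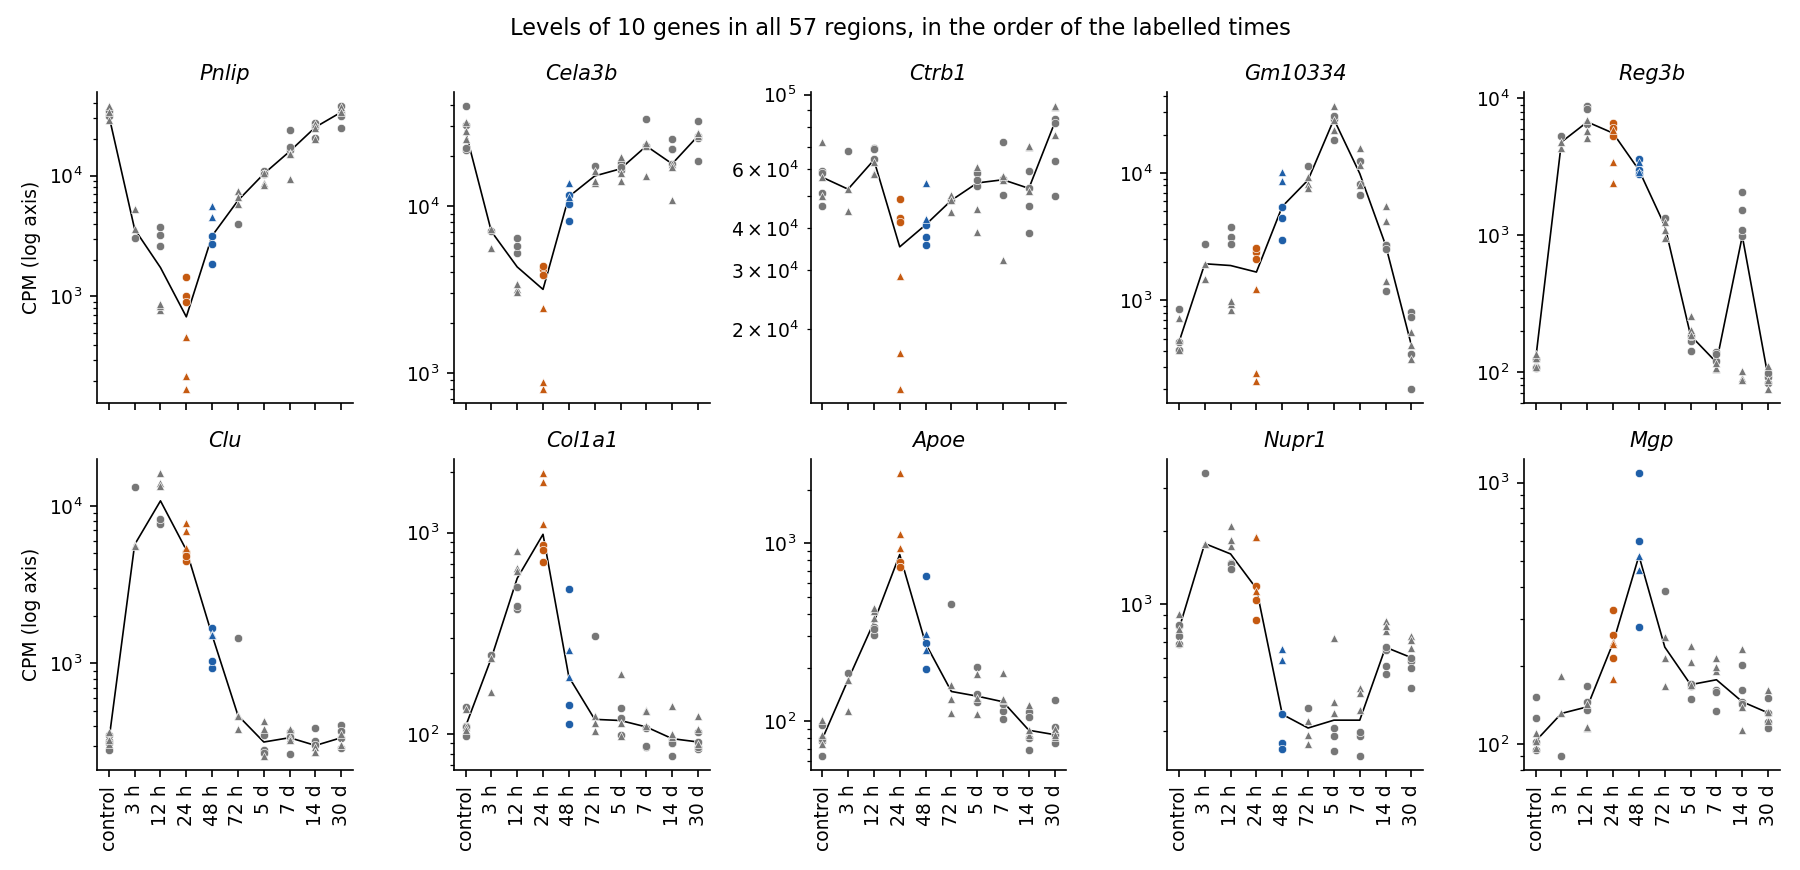
Levels of 10 genes over the whole study, from control through 3 hours to 30 days, in CPM on a log axis, with a point for each of the 57 regions and a line through the group medians. Pnlip and Cela3b are lowest at 24 hours and higher from 48 hours on, Col1a1 and Apoe are highest at 24 hours, and Mgp is highest at 48 hours.

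The other times place the 2 groups. Mean Pnlip was 703 CPM at 24 hours, 3584 CPM at 48 hours, 5971 ± 1455 CPM at 72 hours (SD, n = 4) and 33267 ± 4272 CPM at 30 days (SD, n = 7), so that 24 hours was the lowest of the 10 group means. Mean Col1a1 was 586 ± 150 CPM at 12 hours (SD, n = 6), 1208 ± 535 CPM at 24 hours (SD, n = 6), 246 ± 166 CPM at 48 hours (SD, n = 5) and 162 ± 96.9 CPM at 72 hours (SD, n = 4). Mean Clu was already at its highest at 12 hours (11192 ± 3708 CPM, SD, n = 6) and had 5769 ± 1337 CPM at 24 hours and 1342 ± 330 CPM at 48 hours. Gm10334 went on upward after 48 hours (6321 ± 2996 CPM, SD, n = 5) to 25734 ± 5251 CPM at 5 days (SD, n = 6), and was at 497 ± 220 CPM at 30 days (SD, n = 7). Mgp had its highest mean at 48 hours (592 ± 299.9 CPM, SD, n = 5), against 245 ± 49.7 CPM at 24 hours, 256 ± 94.5 CPM at 72 hours and 112 ± 20.5 CPM in control. Nupr1 was at 1337 ± 448 CPM at 24 hours, 424 ± 187 CPM at 48 hours and 315 ± 48.6 CPM at 72 hours, below its control mean at the last 2 of these times. These levels of other times are descriptions and were not tested here.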

How the data were processed

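Barcodes of the probes were counted after deduplication by GeoMx NGS Pipeline 2.3.3.10, per the file headers. The values used here are the authors' expected counts of 9780 targets, in which a target with several probes is averaged (209 for the negative-probe value), and they were rounded here. Nuclei and reads per region are deposited counts, saturation is a deposited percent, and the limit of quantitation is a deposited signal, used only as an alternative filter. The submitters' processing notes name limma and mm10 without a role. Probe positions are those the file gives.

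Testing was limited to the 2688 targets with more than 2 times the negative probes in 3 or more of all 57 regions. A gene can pass this filter through the time at which it is high, so the shares of called list members depend on it. Without a filter lower calls numbered 25 of 31 cytoskeletal and 23 of 37 lysosomal genes, beside 761 of 9780 targets. Counts were added per time and array (20 sums). The fit used TMM scaling and the quasi-likelihood test of edgeR 4.0.16 (R 4.3.3), with terms for group and array, 9 residual degrees of freedom and a common dispersion of 0.0122. Differences are log2 values of 48 minus 24 hours with their SE, called at a Benjamini-Hochberg adjusted p under 0.05. Levels are CPM after TMM. In simulated data for this comparison the fit recovered 100% of 100 genes changed by 1 and 100% of 100 changed by 2 on the log2 scale. Of its calls among 2688 genes 4.31% were false. The simulated counts varied independently, with the common dispersion alone. They held no spread particular to a gene and no effect shared by the genes of a sum, so these rates may not hold for the real counts. RefSeq held 2677 of the tested targets, 121 under a newer symbol.

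The regions, gene lists and alternatives were chosen with earlier results of these data known. The rule named the 15 largest rises and falls, up to 4 called members of each list and the 10 targets of highest CPM, and allowed members that were not called. The other called members named here (Mgp, Pla2g1b, Tff2, Serpini2, Erp27, Slc39a5, Aqp12, Krt18, Krt19, Cfl1, Actn1, C1qa, Fcer1g, Grn, Ctsa, Hyou1 and Calr) were chosen after their values were seen. Alternatives were other scalings, filters, designs and tools (DESeq2 1.42.0, limma 3.58.1) and leaving out sums or regions. Same-numbered regions of the groups did not deviate together (correlations of -0.10 to -0.03), so the numbers were not taken to pair samples.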

Additional observations from a re-analysis of the deposited data

Results flagged for a closer look

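The values below came from a region far from the others of its time by Dixon's criterion, which chance meets in about 1 of 20 groups. Over 102 named genes at 2 times, 204 gene and time combinations were examined, and 11 met it with 24-hour region 4 as the highest and 4 with 48-hour region 1 as the highest.

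In 24-hour region 4, on array 2, macrophage and lysosomal genes stood above the next region. Apoe was 2462 CPM (next 1129 CPM), C1qb 455.7 CPM (next 216.6 CPM), Ctss 424.9 CPM (next 220 CPM) and Lyz2 261.3 CPM (next 166 CPM). Ctsd was 1005 CPM (next 547.6 CPM), Psap 1344 CPM (next 720.5 CPM), Lgmn 629 CPM (next 301.1 CPM) and Ctsb 501.5 CPM (next 223.5 CPM). The chemokine Ccl6 was 429.4 CPM (next 163.5 CPM), and the class I genes B2m and H2-K1 were 890.9 CPM (next 528 CPM) and 369.4 CPM (next 251.9 CPM). Without this region 367 targets were called, against 472 with it.

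In 48-hour region 1, on array 1, the genes with a high outlying value were Apoe at 654.8 CPM (next 308.4 CPM), Col3a1 at 414.9 CPM (next 198.8 CPM), Spp1 at 466.9 CPM (next 245.2 CPM) and Zfp36l1 at 221 CPM (next 183.8 CPM). The same region had the fewest nuclei of its time, 1167 (next 1649), and the most targets above 2 times the negative probes, 1769 (next 835). Without it 538 targets were called.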

How the results depend on the processing

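The 30 largest differences kept their direction under every alternative run, which their choice among calls of the same sign on both arrays made likely in advance. Each lost its call in the fit of the 4 sums alone. Against 472 calls (157 higher and 315 lower), other scalings gave 498 with DESeq2 size factors, 608 (370 higher) at the 75th percentile, 272 (30 higher) by total, 1156 (26 higher, 1130 lower) by negative probes, 115 (63 higher, 52 lower) with the background subtracted and 499 (chosen after seeing the data) with library sizes over all targets. Filters gave 1019 calls without a filter (258 higher, 761 lower), 972 at the limit of quantitation (266 higher, 706 lower) and 381 on the 11 regions. Designs gave 0 on the 4 sums (0 higher, 0 lower), 471 without controls, 199 without the array term (48 higher, 151 lower), 1178 with 57 regions as samples (542 higher, 636 lower) and 697 with time by array as a random block (312 higher). The replicate block gave 1052 (508 higher, 544 lower), a fit over regions whose numbers were not found to pair samples. Tools gave 607 in DESeq2 (275 higher), 614 in limma-voom on the sums (255 higher) and 297 on mean log2 CPM (185 lower). Leaving out 1 sum gave 21 to 648 calls (2 to 232 higher, 19 to 416 lower), leaving out 1 region 367 to 544 (115 to 189 higher, 252 to 356 lower), and leaving out 24-hour regions 4 and 6 together, chosen after seeing the data, 188 (59 higher, 129 lower). The nuclei difference of 271 became 386 (exact permutation p = 0.019) without 48-hour region 1 (193 to 386 without 1 region). The difference in targets above background was -450.3 within array 1 (exact p = 0.4) and -1270.3 within array 2 (exact p = 0.2), where the number of regions allows no lower p than 0.1 and 0.2. Edem3 (-0.018) and Sec11c (-0.051) turned below 0 with scaling to the negative probes, which rose by 0.30. Other causes were not tested. Over named genes and tested alternatives, 2898 results kept direction and side of the threshold, 555 lost the call, 4 gained it and 2 (Edem3 and Sec11c, above) reversed. With 2 sums per time, and 1234 of 2688 targets near background, a target that was not called is not shown to be unchanged.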
